A study of Mus musculus with 9 samples.

Results

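The 9 genes described here act on the shape and removal of mitochondria: Mfn1, Mfn2, Opa1, Dnm1l, Fis1, Pink1, Bnip3, Bnip3l and Fundc1. They were taken by symbol from single-cell count matrices of mouse kidney, and all 9 were found among the 32427 genes of the matrices. The kidneys came from male C57BL/6 mice aged 6 weeks at the start. Control mice (n = 3) received saline, AKI-CKD mice (n = 3) received 4 weekly intraperitoneal injections of cisplatin at 8 mg/kg, a model of acute kidney injury (AKI) that goes on to chronic kidney disease (CKD), and AKI-CKD + EGT mice (n = 3) received the same cisplatin with ergothioneine (EGT) at 0.5 mg/mL in drinking water from 3 days before the first injection. Kidneys were taken after 8 weeks, and each mouse gave 1 droplet library in which transcripts were counted by unique molecular identifiers (UMIs). No mouse received EGT without cisplatin, so each treated group is read against the group that lacks 1 agent. EGT was given before and throughout cisplatin, so protection and recovery cannot be told apart in this design.

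Mitochondria continually fuse and divide. The mitofusins Mfn1 and Mfn2 join outer membranes, Opa1 joins inner membranes and holds the cristae, and Dnm1l encodes the dynamin-like GTPase Drp1, which constricts the organelle at division sites; Fis1 is a small outer membrane protein linked to division. Damaged mitochondria are removed by mitophagy. The kinase Pink1 accumulates on mitochondria that have lost their membrane potential and marks them for removal through ubiquitin, whereas Bnip3, Bnip3l (also called Nix) and Fundc1 sit in the outer membrane and bind the autophagosome directly. Bnip3 and Bnip3l are known targets of the hypoxia-inducible factor HIF. Proximal tubule (PT) cells, which take up cisplatin, are among the cells of the body richest in mitochondria.

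The sequence upstream of the start was read for the members from RefSeq (build GRCm38.p6), which held 12 windows of 250 bases for 8 of the 9 members. No window was available for Bnip3l, which was therefore not searched. Windows were searched on both strands for the HIF core, written ACGTG or GCGTG, for the NRF1 site, written GCGCA, any base and then GCGC, and for the cyclic AMP element TGACGTCA; matches to these motifs can overlap each other. Either HIF core was found in 6 of the 12 windows and in 4 members (Mfn2, Dnm1l, Pink1 and Bnip3), against 38.6% of 32851 windows of all genes. The windows of Mfn2 overlap each other, and some of them hold the same match. The NRF1 site, bound by a factor known to drive nuclear genes of mitochondria, was found in 3 of the 12 windows (of Opa1, Pink1 and Bnip3), against 3.74% of all windows. The cyclic AMP element was found in 0 of the 12, against 1.55%. The windows of Bnip3 (chr7:138909507-138909756, minus strand), the member with the most matches, and of Fis1 (chr5:136953025-136953274, plus strand), to which several of the results below refer and which held no match, are shown 5′ to 3′ up to the base before the start. Capitals mark the matches. In Bnip3 the first run of capitals is the NRF1 site, which also holds a HIF core on the other strand, and the later runs are HIF cores.
Bnip3: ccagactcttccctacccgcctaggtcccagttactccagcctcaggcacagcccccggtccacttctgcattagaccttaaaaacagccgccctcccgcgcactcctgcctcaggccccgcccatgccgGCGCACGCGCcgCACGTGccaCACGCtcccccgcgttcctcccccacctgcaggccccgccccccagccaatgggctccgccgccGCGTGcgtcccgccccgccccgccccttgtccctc
Fis1: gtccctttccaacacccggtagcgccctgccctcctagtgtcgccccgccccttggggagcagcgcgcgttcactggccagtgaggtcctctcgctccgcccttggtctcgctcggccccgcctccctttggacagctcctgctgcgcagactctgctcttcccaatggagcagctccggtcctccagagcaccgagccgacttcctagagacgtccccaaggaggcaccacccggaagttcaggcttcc

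The libraries held 216680 barcodes, 17196 to 27463 of which per mouse were kept at a minimum of 1000 UMIs and 500 genes and at most 15% mitochondrially encoded UMIs, 196925 in all. That is a larger number than the study retained. Total UMIs ranged from 70106161 to 101525691 per mouse, and kept cells had a median of 2714. The libraries differed in mitochondrially encoded RNA, which made up 1.69% of UMIs in Control 3, 8.20% in Control 1 and 9.28% in AKI-CKD + EGT 3 before that limit, and the limit removed 27.7% of the barcodes of AKI-CKD + EGT 3, 17.0% of those of Control 1 and at most 7.94% elsewhere. Barcode names were running numbers, 62337 of which occurred in more than 1 library, and 0 barcodes had the same counts as another. Clustering gave 11 cell types named from marker genes, each of them a marker-based likeness (PT-like and so on, written PT below), with 145663 PT cells, 10975 distal convoluted tubule (DCT) cells, 7260 loop of Henle (LOH) cells, 3567 endothelial cells and 2250 macrophages among the larger ones. One of the 2 DCT clusters was led by Calb1 and Klk1, genes also known from the connecting tubule, and 20177 cells stayed unnamed. RNA of PT marker genes was present in every type, since the summed level of 20 such markers in the other types had medians of 30.5% (collecting duct intercalated cells) to 70.8% (podocytes) of the level in PT cells. Conversely, within PT cells the summed level of 12 DCT markers was 238 to 439 CPM for AKI-CKD and 584 to 1885 CPM with EGT. Markers of LOH (10, 346 to 436 against 513 to 851 CPM), of collecting duct intercalated cells (10, 6.03 to 10.1 against 12.1 to 82.0 CPM) and of erythroid cells (6, 0.386 to 2.27 against 9.97 to 58.4 CPM) were likewise lower in PT cells of AKI-CKD mice than with EGT without overlap. The summed level of 12 macrophage markers was 196 to 402 CPM for Control and 338 to 575 CPM for AKI-CKD. The part of RNA from other cells in the members' values was not tested. Dnm1l and Bnip3 overlap antisense genes (Gm49521 and Gm45507), and where counting does not use strand, reads of such partners cannot be told apart.

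Every member was detected in all 11 cell types, with at least 25 UMIs in all per gene and type. Levels are given as CPM, the UMIs of a gene per 1000000 UMIs summed over the cells of a type in a mouse, as lowest, median and highest of the 9 mice, and carry no test because the types were clustered from the same cells. Among the fusion genes, Mfn1 had its highest median in DCT cells, with 55.4, 59.1 and 78.1 CPM, followed by LOH cells at a median of 53.8 and PT cells at 48.5, and its lowest in B cells at 31.4. Mfn2 was likewise highest in DCT cells, with 39.4, 49.1 and 63.9 CPM, whereas PT cells had 24.7, 29.3 and 31.7. The ranges of Mfn2 in DCT, LOH and collecting duct intercalated cells lay wholly above the range in PT cells. Opa1 was highest in collecting duct intercalated cells, with 32.4, 49.9 and 58.6 CPM, and its median in PT cells was 32.2.

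The fission genes differed from each other in their order over cell types. Dnm1l peaked in the collecting duct, with 45.2, 62.6 and 81.1 CPM in intercalated cells and 39.7, 50.2 and 70.5 in principal cells, both ranges above that of PT cells at 25.7, 30.3 and 38.9. The median in intercalated cells was 2.07 times that in PT cells. Fis1 was spread more evenly, with medians from 326 CPM in T or NK cells to 498 in podocytes, and PT cells stood seventh of the 11 types with 334, 370.1 and 438 CPM.

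Of the mitophagy genes, Pink1 had medians from 85.2 CPM in T or NK cells to 129.8 in LOH cells, and the tubule and endothelial types stood above the immune types in the order of medians. Bnip3 was highest in DCT cells, with 49.4, 80.5 and 104 CPM, and lowest in collecting duct principal cells at a median of 38.0. Bnip3l had another order, with the highest level in endothelial cells at 52.6, 88.9 and 132 CPM against 38.7, 46.8 and 62.7 in PT cells. Its endothelial median was 1.90 times the PT median, and the endothelial level was the higher in 9 of 9 mice, although the ranges over mice overlapped. Fundc1 ranged from a median of 14.9 CPM in cycling cells to 28.4 in DCT cells. For all 9 members, neighbouring types in the order of medians overlapped in range (90 of 90 neighbouring pairs), and only 5 of the 90 pairs of another type with PT did not overlap, all with PT the lower.

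**Figure D1:**
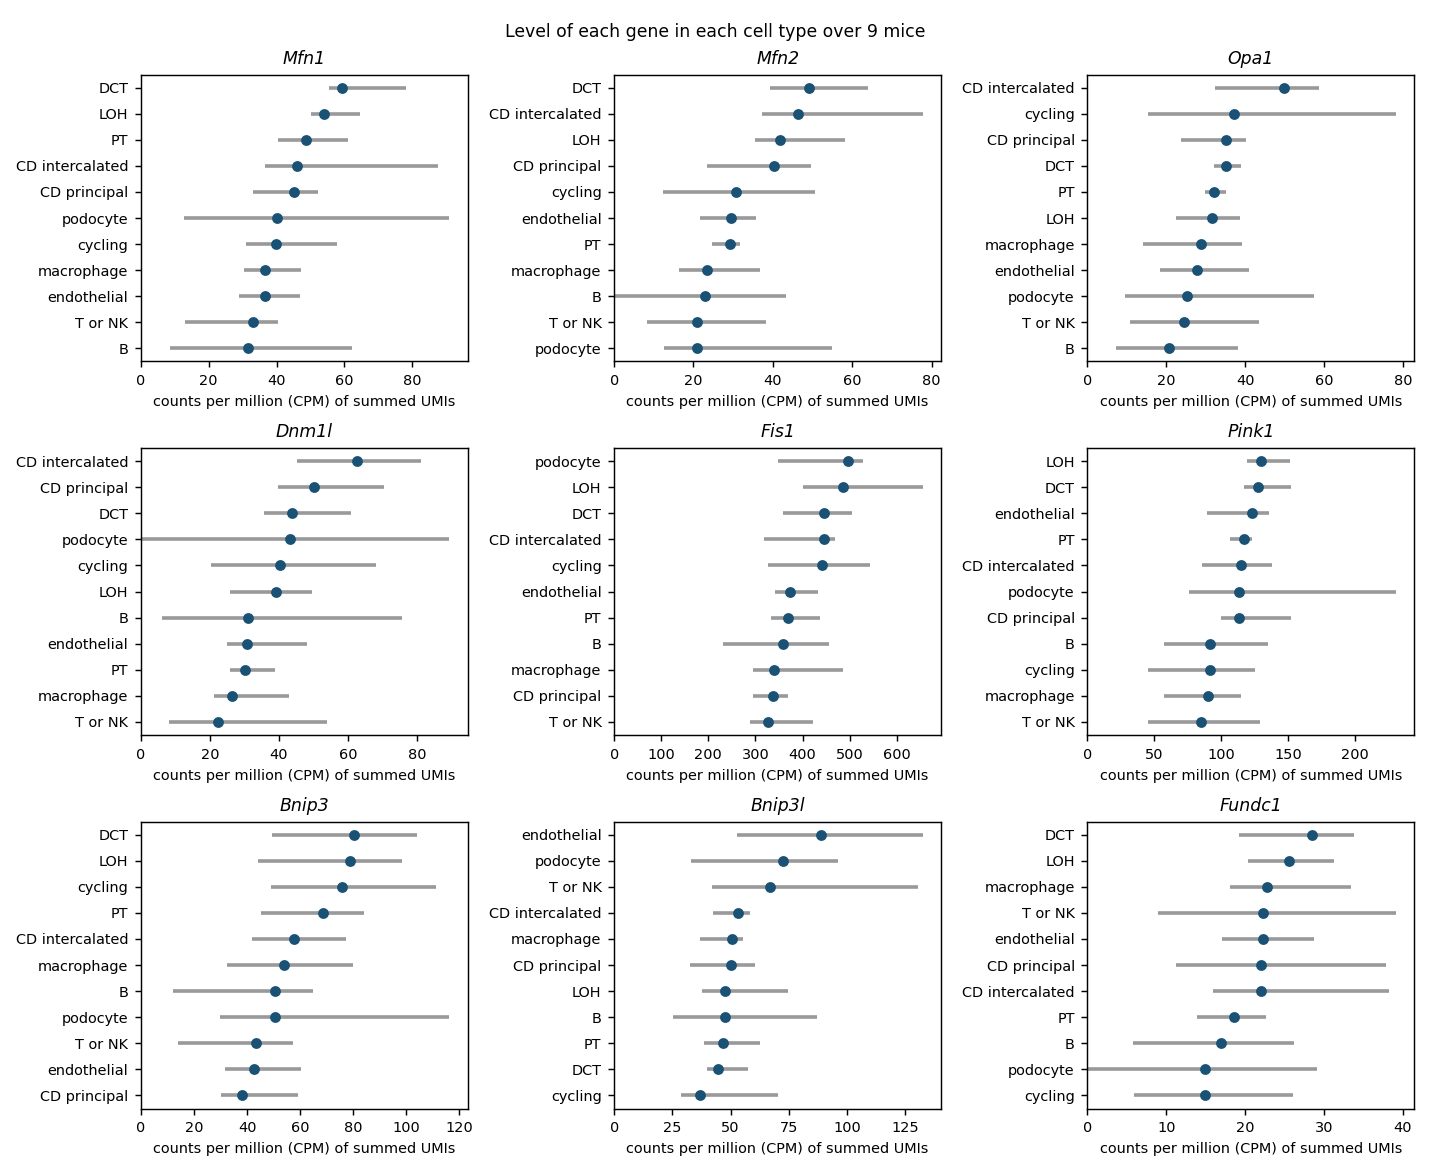
Level of each of the 9 genes (CPM, 1 panel per gene) in the 11 marker-named cell types. A point marks the median of the 9 mice, and a line runs from the lowest to the highest mouse. Mfn1, Mfn2, Bnip3 and Fundc1 have their highest median in DCT cells, Opa1 and Dnm1l in collecting duct intercalated cells, and Bnip3l in endothelial cells.

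Within the PT cells, clusters with raised markers of the first segment (S1) and of the last segment (S3) gave 6 genes in 1 order in every mouse. In S1 the medians of Dnm1l (38.5 against 18.1 CPM in S3), Opa1 (40.1 against 25.7), Mfn2 (34.6 against 23.3), Bnip3l (48.9 against 38.4) and Mfn1 (54.0 against 45.1) were the higher, in 9 of 9 mice each. Pink1 had the opposite order, with 105.9 CPM in S1 and 125.5 in S3, again in 9 of 9 mice. Fis1 was higher in S1 in 7 mice, and Bnip3 and Fundc1 in 5 mice each. The largest S1 to S3 ratios were 2.12 for Dnm1l and 1.56 for Opa1, as a description of clusters without a test. The members higher in S1 in 9 of 9 mice span from 23.6 kb (Bnip3l) to 75.6 kb (Opa1). The other members span from 12.9 kb (Pink1) to 18.7 kb (Bnip3). The part of gene length in this order was not tested.

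The first comparison asked whether cisplatin changed these genes in PT cells, the largest population. No member passed the test between AKI-CKD and Control (edgeR quasi-likelihood F test on counts summed per mouse, Benjamini-Hochberg adjusted over all genes, threshold 0.05), where 0.0391% of the 17893 genes tested did. The 9 members had a median log2 fold change of 0.03, against -0.01 over all genes tested, and 0 of 9 had an unadjusted p under 0.05. With 1 mouse left out that median ranged from -0.040 (without Control 1) to 0.13 (without Control 3), and it was -0.024 without AKI-CKD 3. From here on, levels are CPM after TMM scaling, a factor per library that centres most genes, in the order of mouse 1, 2 and 3 of a group. Scaled by library totals alone, the median of all PT genes was lower by 0.0848 in this comparison and higher by 0.213 for EGT against AKI-CKD, so the sign of a small change depends on the scaling. Without TMM 3 rather than 6 of 9 members lay above 0 against Control, with a median of -0.046. A change in such sums can come from fewer transcripts per cell or from another mix of cells within a type, which cannot be told apart.

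None of the 3 fusion genes passed the test in PT cells. Mfn1 had 49.3, 51.2 and 63.0 CPM in Control, 47.0, 42.7 and 56.9 in AKI-CKD and 47.9, 48.4 and 40.5 with EGT, and AKI-CKD overlapped both other groups. Each EGT mouse lay below each Control mouse, a difference that was not tested and that overlapped without TMM. The share of all genes without overlap between EGT and Control mice was not counted. Mfn2 had 27.2, 26.2 and 29.96 CPM in Control and 30.3, 31.8 and 33.3 in AKI-CKD, so every AKI-CKD mouse lay above every Control mouse, at a log2 fold change of 0.19 ± 0.11 (SE) and an adjusted p of 0.5265 by edgeR. Mfn2 had 31.4, 27.7 and 26.2 with EGT, which overlapped AKI-CKD. Opa1 had a log2 fold change of -0.02 ± 0.11 against Control, with group means of 33.6 ± 2.3 CPM (SD, n = 3) for Control, 33.2 ± 1.5 for AKI-CKD and 30.4 ± 1.8 with EGT.

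The fission genes had changes of opposite sign in PT cells, neither of which passed the test. Dnm1l had 36.6, 31.7 and 35.4 CPM in Control and 31.3, 27.2 and 29.4 in AKI-CKD, where each mouse lay below each Control mouse (log2 fold change -0.24 ± 0.11, adjusted p 0.4648, edgeR). With EGT it had 31.4, 28.9 and 30.5. Without TMM its group means were 34.4 CPM for Control, 27.4 for AKI-CKD and 32.9 with EGT, AKI-CKD then overlapped Control, and each EGT mouse lay above each AKI-CKD mouse (log2 changes -0.33 ± 0.13 and 0.26 ± 0.13, adjusted p 0.4523 and 0.3021, edgeR). Fis1 had 334, 361 and 368 CPM in Control, 413, 463.3 and 463.2 in AKI-CKD and 367, 405 and 278.5 with EGT. AKI-CKD mice were thus above both other groups without overlap, at a log2 fold change of 0.33 ± 0.16 against Control (adjusted p 0.4696, edgeR). Without TMM they were still above Control but overlapped the EGT mice, with 398, 438 and 413 CPM in AKI-CKD and 370.1, 424 and 334 with EGT. The 3 members whose groups did not overlap, Mfn2 and Fis1 higher and Dnm1l lower, are to be read against 19.8% of all genes tested that did not overlap, 11.2% higher and 8.62% lower. Without TMM the shares against Control were 18.5%, 6.77% higher and 11.8% lower. For EGT against AKI-CKD without TMM, 24.5% of genes did not overlap, 21.9% higher with EGT.

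The mitophagy genes of PT cells overlapped between AKI-CKD and Control throughout. The mean of Pink1 was 116.6 ± 8.2 CPM (SD, n = 3) for Control and 122 ± 13.5 for AKI-CKD mice. Bnip3 had 71.5, 64.9 and 73.4 CPM in Control and 71.2, 66.2 and 73.0 in AKI-CKD, a log2 fold change of 0.00 with a 95% interval from -0.50 to 0.51. Bnip3l varied most among Control mice, from 36.3 to 64.6, with AKI-CKD mice between 48.8 and 52.7. Fundc1 had 13.1, 19.1 and 21.4 CPM in Control and 19.3, 17.6 and 20.8 in AKI-CKD. Over the 9 members the 95% intervals of the PT change reached from -0.50 to 0.68 on the log2 scale, and the narrowest was that of Opa1, from -0.25 to 0.22.

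The second comparison asked how EGT changed these genes in mice given cisplatin, and it shares the AKI-CKD mice with the first. In PT cells 0 of 9 members passed the test, against 0% of all genes tested (0 of 17893, by edgeR, with 2601 genes at an unadjusted p under 0.05 and 413 called by DESeq2), and 8 of 9 lay below 0 with a median of -0.12. That median was -0.012 without AKI-CKD + EGT 3 and -0.23 without AKI-CKD + EGT 1. The count turned without TMM, where 8 of 9 lay above 0 with a median of 0.076, as did 77.1% of all PT genes at a median of 0.205. Fis1 was the only member at an unadjusted p under 0.05 (log2 fold change -0.35 ± 0.16, unadjusted p 0.0464, adjusted p 0.3371, edgeR) and the only one whose groups did not overlap, against 20.7% of all genes. Without TMM its groups overlapped and its change was -0.15 ± 0.11 (adjusted p 0.4693, edgeR). Without AKI-CKD + EGT 3, the library with the most mitochondrially encoded RNA, the change of Fis1 was -0.20. DESeq2 likewise called 0 members over both comparisons and all cell types.

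Bnip3 differed most among the EGT mice. It had 83.3, 72.5 and 37.9 CPM in AKI-CKD + EGT 1 to 3, so the first mouse was above and the third below all other 8 mice. The log2 fold change against AKI-CKD was -0.12 ± 0.23, it was 0.16 without AKI-CKD + EGT 3, and it was 0.07 without TMM. Bnip3l and Fundc1 were likewise highest in the first of these mice, with 62.0, 42.4 and 37.1 CPM and with 22.4, 18.5 and 14.5 CPM. Pink1, at 112, 118 and 102 CPM, overlapped AKI-CKD.

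**Figure D2:**
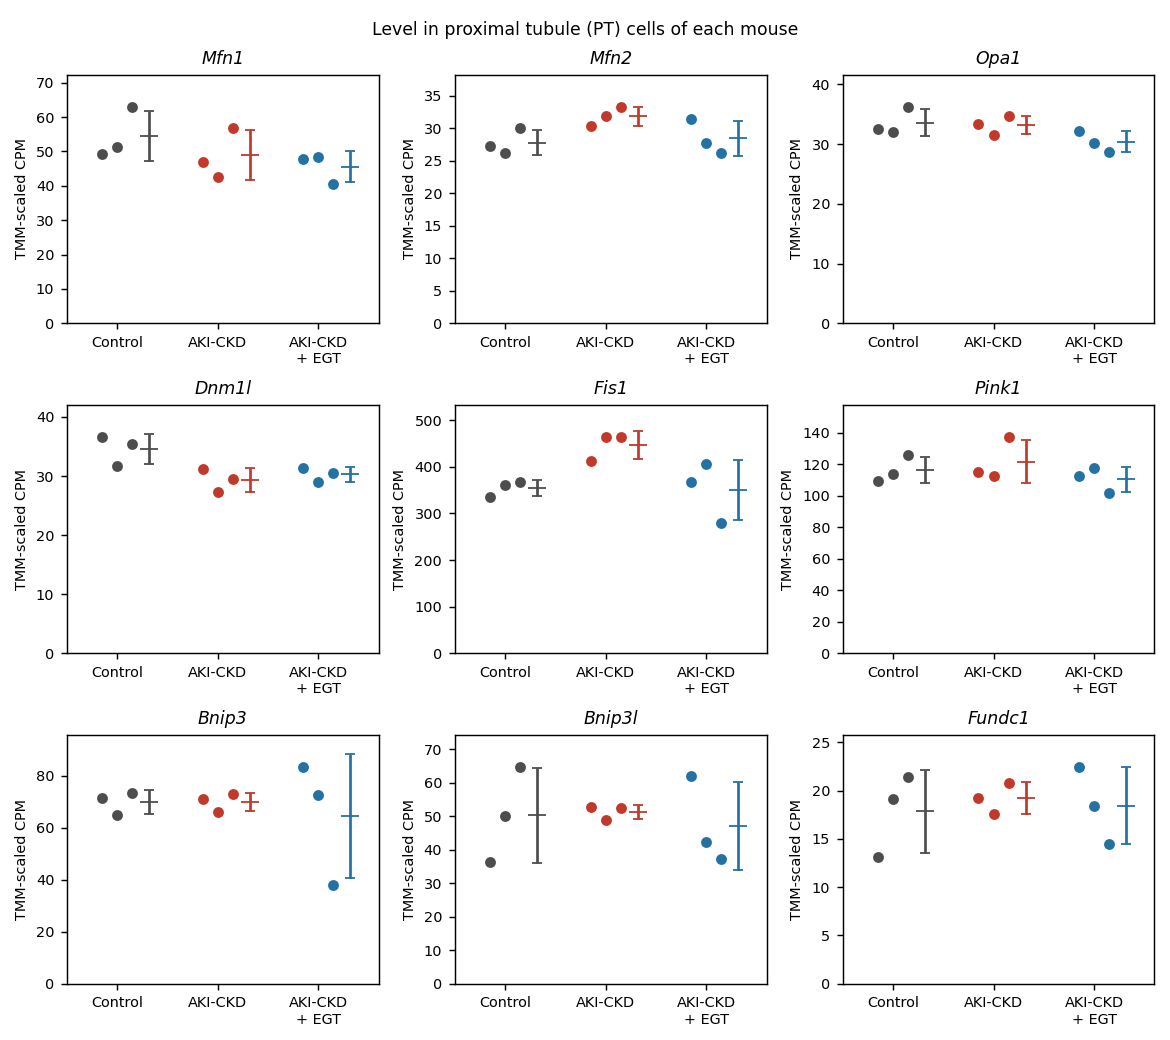
Level of each of the 9 genes in PT cells (TMM-scaled CPM, axes from 0) for each mouse, with points for mice and a bar for the mean and SD of each group of 3. Fis1 is higher in the 3 AKI-CKD mice than in every other mouse, although without TMM scaling AKI-CKD + EGT 2 falls within the AKI-CKD mice, and Bnip3 is spread from 37.9 to 83.3 among the AKI-CKD + EGT mice.

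Outside PT cells the tested populations were LOH, DCT, endothelial cells and macrophages. All 9 members could be tested in each, and 0 passed in either comparison, against backgrounds for AKI-CKD against Control of 0% in LOH, DCT, endothelial cells and macrophages and for AKI-CKD + EGT against AKI-CKD of 0.00941% in LOH cells, 0.0097% in endothelial cells and 0% in DCT cells and macrophages. Over all 5 populations, 0 of 45 tests of members had an unadjusted p under 0.05 for AKI-CKD against Control (9.27% of the tests of all genes), and 4 of 45 did in the EGT comparison (12.5%). Changes above 0 numbered 27 of 45 against Control, where 48.3% of all changes were above 0, and 9 of 45 in the EGT comparison, where 50.9% were. Without TMM these counts were 22 of 45 in both comparisons, where 42.8% and 65.7% of all changes were above 0, and the tests of members at an unadjusted p under 0.05 were 2 (Dnm1l and Fis1 in PT cells) and 0. The 45 values come from the same mice and are not independent. With TMM the 4 tests were those of Fis1 in PT, LOH and endothelial cells and of Fundc1 in endothelial cells, and the smallest adjusted p over these 45 was 0.3371.

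In LOH cells, Fis1 had 441, 456 and 526 CPM in Control, 518, 649.5 and 527 in AKI-CKD and 475, 470.1 and 391.5 with EGT. AKI-CKD overlapped Control, where 0 of 9 members were free of overlap against 14.4% of genes, but lay above all EGT mice, as for 14.8% of genes in either direction. Dnm1l had 40.5, 39.2 and 48.6 CPM in Control, 34.4, 31.4 and 41.9 in AKI-CKD and 25.3, 47.0 and 40.6 with EGT, with every group overlapping. Mfn2 had 42.2, 38.8 and 44.8 CPM in Control, 47.1, 57.2 and 36.1 in AKI-CKD and 56.9, 40.6 and 38.5 with EGT, and its groups overlapped (log2 fold change 0.16 ± 0.21 against Control, adjusted p 0.8776, edgeR).

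DCT cells had no member free of overlap between AKI-CKD and Control, where 16.2% of genes were. Mfn2, which was highest in these cells, had 40.3, 50.6 and 47.2 CPM in Control and 60.7, 58.2 and 49.6 in AKI-CKD (log2 fold change 0.30 ± 0.18, adjusted p 0.6279, edgeR). Fis1 had 418, 356 and 450.3 CPM in Control, 446, 538 and 495 in AKI-CKD and 435, 447 and 364 with EGT. In the EGT comparison Pink1 was the 1 member without overlap, at 139, 128 and 142.5 CPM in AKI-CKD and 123, 109.6 and 126 with EGT, where 18.7% of genes did not overlap. Its log2 fold change was -0.19 ± 0.14 with an adjusted p of 0.5604 by edgeR, and without TMM its groups overlapped.

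Endothelial cells had Fis1 at 390.3, 359.8 and 365 CPM in Control, 430.1, 439 and 404 in AKI-CKD and 349, 333 and 342 with EGT. The AKI-CKD mice were above both other groups, and Fis1 was the 1 member without overlap against Control, where 14.9% of genes were free of overlap. In the same cells the summed level of 12 mural or fibroblast markers, 9 of them detected and Col1a1, Col3a1 and Lum at 0, was 330 to 406 CPM for Control, 444 to 735 for AKI-CKD and 422 to 512 with EGT, and its part in the values of Fis1 was not tested. Fundc1, a mitophagy receptor known to act under low oxygen, had 25.8, 28.2 and 23.1 CPM in AKI-CKD and 16.0, 18.9 and 17.1 with EGT, a log2 fold change of -0.57 ± 0.23 (unadjusted p 0.0247, adjusted p 0.4351, edgeR) that rests on 19 to 48 UMIs per mouse. These 2 members, Fis1 and Fundc1, were free of overlap in the EGT comparison against 15.5% of genes. Bnip3l, whose own level was highest in this cell type, had 54.5, 76.9 and 97.6 CPM in Control, 97.0, 113 and 92.4 in AKI-CKD and 123.5, 50.5 and 70.0 with EGT. Its groups overlapped in both comparisons.

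In macrophages 0 members were free of overlap in either comparison, against 13.9% and 16.5% of genes. Pink1 had 116, 93.5 and 85.7 CPM in Control, 65.1, 59.3 and 98.8 in AKI-CKD and 82.4, 95.5 and 104 with EGT, at log2 changes of -0.39 ± 0.23 and 0.32 ± 0.23. These were -0.67 and 0.60 without AKI-CKD 3 and -0.22 and 0.15 without AKI-CKD 2, and the first was -0.24 without Control 1. Opa1 had 32.4, 34.1 and 37.9 CPM in Control and 37.2, 14.5 and 29.0 in AKI-CKD, with only 10 to 45 UMIs behind each value. Counts were low for most members in these cells, down to 7 UMIs for Mfn2 in 1 mouse.

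**Figure D3:**
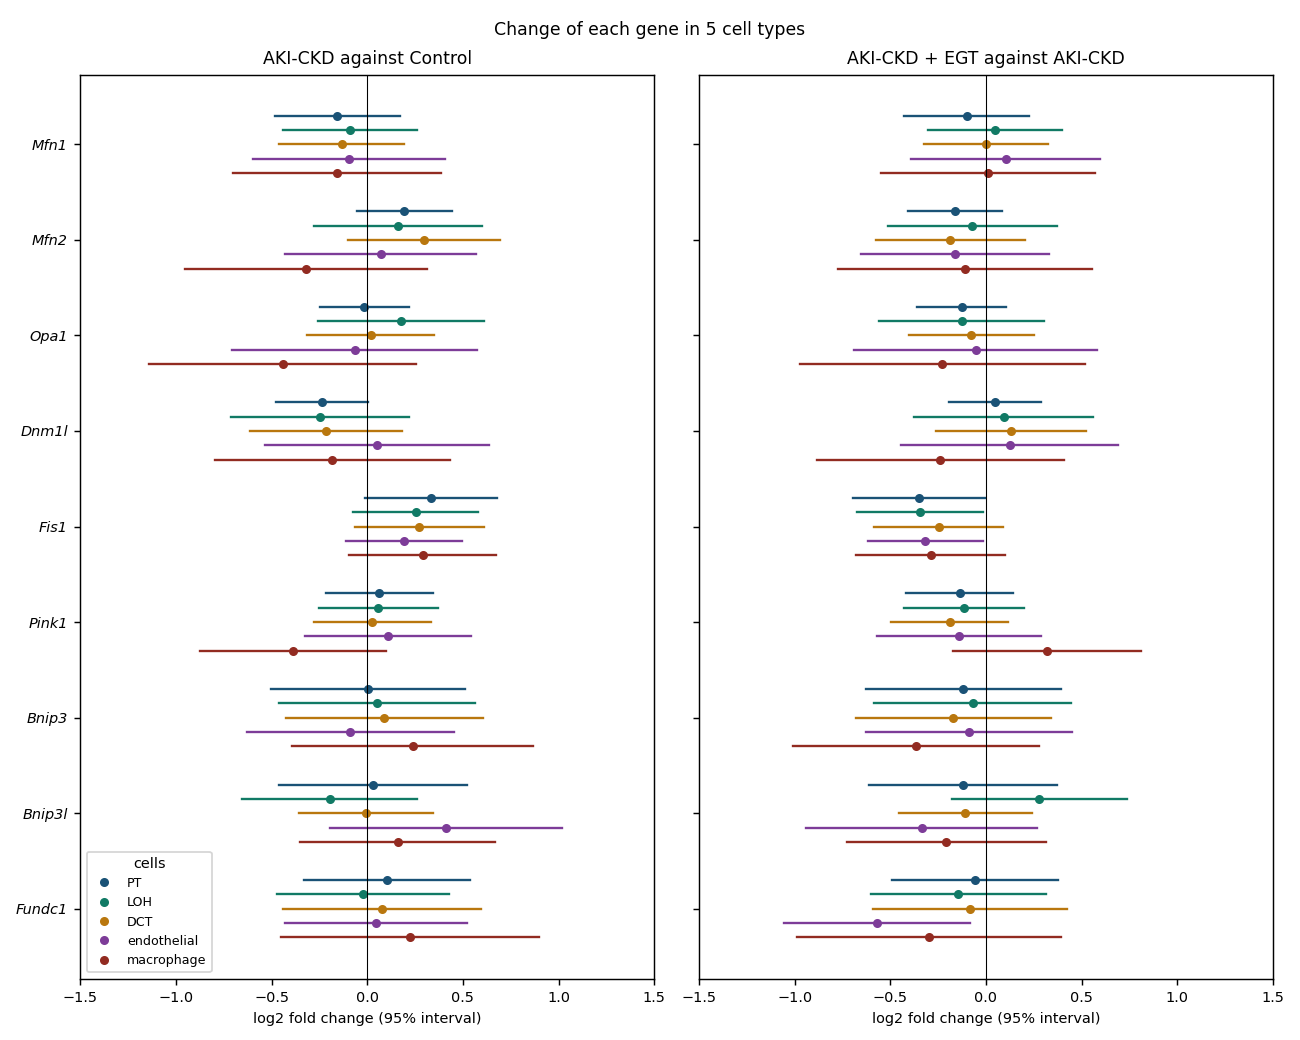
Log2 fold change of each gene with its 95% interval from the edgeR fit in 5 cell types, for AKI-CKD against Control and for AKI-CKD + EGT against AKI-CKD. Fis1 lies above 0 in all 5 cell types in the first comparison and below 0 in all 5 in the second, and no gene passed the adjusted threshold.

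Whether the change of a member differed between PT cells and another type was tested directly, with the mouse as a block. Of 72 such tests 0 passed, where the share of all genes that did was 0.206% (LOH), 0.00581% (DCT), 0.123% (endothelial) and 0.299% (macrophage) for AKI-CKD against Control and 1.36%, 0%, 0.424% and 0.401% for AKI-CKD + EGT against AKI-CKD. The 2 tests at an unadjusted p under 0.05 were both of Pink1 in macrophages. Its change in macrophages minus that in PT cells was -0.45 ± 0.20 on the log2 scale for AKI-CKD against Control (adjusted p 0.8178, edgeR) and 0.40 ± 0.20 for EGT against AKI-CKD alone (edgeR, adjusted p 0.8274). A difference between cell types was therefore not detectable for any member.

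Fis1 was the only member with 1 sign over the 5 populations in both comparisons. Mfn1 lay below 0 in all of them against Control only, and Bnip3, Fundc1, Mfn2 and Opa1 for EGT only. Without TMM the signs of Fis1 held in all 5, those 4 members turned above 0 in PT cells for EGT, and Mfn1 lay above 0 in all 5 for EGT. The log2 fold changes of Fis1 with TMM were 0.33 in PT, 0.25 in LOH, 0.27 in DCT, 0.19 in endothelial cells and 0.29 in macrophages for AKI-CKD against Control, and -0.35, -0.34, -0.25, -0.32 and -0.29 for AKI-CKD + EGT against AKI-CKD. These 5 values come from the same mice and are not independent, and PT marker RNA lay in each of the other types at medians of 44.0% (DCT), 52.0% (endothelial), 60.8% (LOH) and 69.9% (macrophages) of its PT level. Both comparisons share the AKI-CKD mice, and the share of all genes with 1 sign over the 5 populations was not counted. Without TMM the changes of Fis1 were 0.25, 0.28, 0.20, 0.16 and 0.27 against Control and -0.15, -0.31, -0.13, -0.22 and -0.24 for EGT. With AKI-CKD + EGT 3 left out, the EGT changes were -0.20, -0.26, -0.16, -0.32 and -0.18. With AKI-CKD 2 left out, the LOH change against Control was 0.14, and with AKI-CKD 1 left out the macrophage changes were 0.12 and -0.12.

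Other gene groups had the same order of the 3 groups of mice as Fis1. Ribosomal protein RNA made up 6.65% to 7.35% of PT UMIs for Control, 8.34% to 9.14% for AKI-CKD and 6.76% to 7.75% with EGT, so the AKI-CKD mice were above all others. Nuclear genes of the respiratory chain (OXPHOS) made up 6.40% to 6.81%, 7.24% to 8.42% and 6.49% to 7.11%. The medians of these lists in PT cells were 0.39 for 79 ribosomal protein genes and 0.27 for 77 OXPHOS genes against Control, and -0.45 and -0.35 for EGT against AKI-CKD, with 0 genes of either list called in either direction. Without TMM they were 0.30 and 0.19, and -0.24 and -0.15. Mitochondrially encoded RNA had the opposite order, at 1.88% to 2.95% of PT UMIs for AKI-CKD and 3.36% to 5.59% with EGT, with Control mice between 1.48% and 5.81%. Changes also ran with the length of the gene. The 219 PT genes that span at least 500 kb had a median of -0.51 against Control and 0.63 for EGT against AKI-CKD. The 9378 genes that span 10 to 100 kb, where Fis1 belongs at 13.0 kb, had -0.007 and -0.023. The 4957 genes under 10 kb had 0.08 and -0.08. Without TMM the medians were -0.59 and 0.865 for the long genes and -0.00153 and 0.13 for the short ones. The part of these library-wide differences in the values of Fis1 was not tested.

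**Figure D4:**
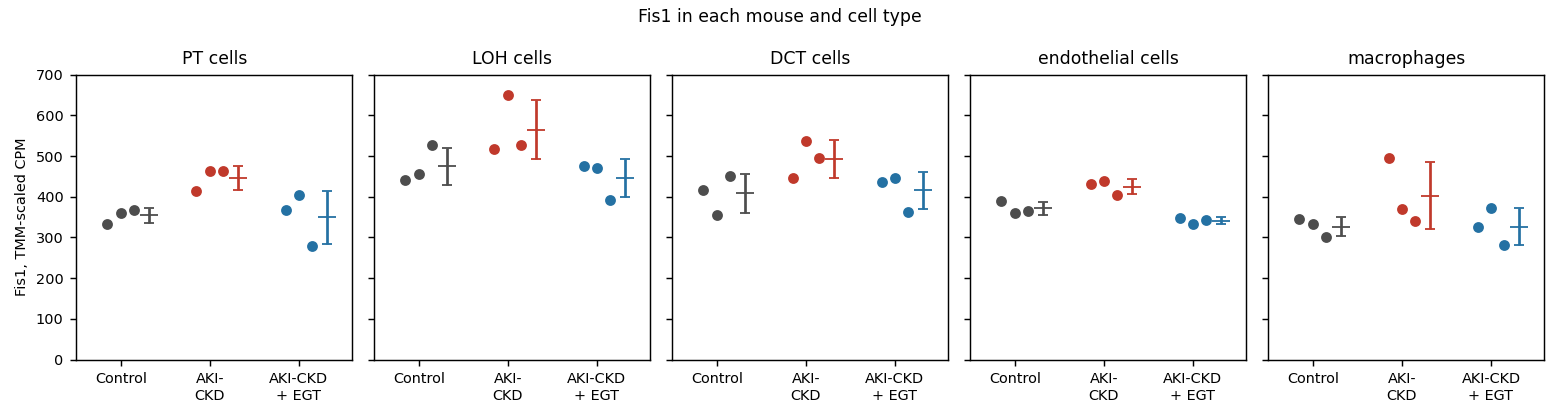
Fis1 level (TMM-scaled CPM) in each mouse in 5 cell types, with points for mice and a bar for each group mean with its SD (n = 3). The AKI-CKD mice lie above all AKI-CKD + EGT mice in PT (not without TMM scaling), LOH and endothelial cells and overlap them in DCT cells and macrophages.

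The wider pathway was described from lists of fusion regulators (14 genes), fission adaptors and regulators (12), the Pink1 and ubiquitin pathway (13), other mitophagy receptors (8), autophagy adaptors and Atg8 proteins (16) and hypoxia-response genes (15), all found in the matrices. In PT cells 0 genes of any list were called in either comparison. Fusion regulators lay above 0 for 10 of 14 genes against Control and below 0 for 13 of 14 genes for EGT against AKI-CKD, with medians of 0.13 and -0.12 where all genes had -0.01 and -0.01. Without TMM 10 of 14 lay above 0 against Control and 12 of 14 above 0 for EGT, where 36.4% and 77.1% of all PT genes did. The list medians were then 0.047 and 0.093, against -0.098 and 0.205 over all PT genes. The sign for EGT thus turned with the scaling, while the list median stayed below that of all genes. Hypoxia-response genes, which include targets of HIF beside Bnip3 and Bnip3l, had medians of 0.09 and 0.00, with 10 and 8 of 15 above 0. Without TMM 8 and 12 of 15 lay above 0, beside the same 36.4% and 77.1% of all PT genes.

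Among the named genes of these lists in PT cells, Fkbp8, another outer membrane mitophagy receptor, had 169, 172 and 189.9 CPM in Control, 203, 220.1 and 228 in AKI-CKD and 171, 189 and 164 with EGT, so it was highest in AKI-CKD without overlap, although without TMM it overlapped the EGT mice. Its log2 changes were 0.30 ± 0.12 and -0.32 ± 0.12, with adjusted p of 0.4438 and 0.286 by edgeR. Fkbp8 was named for its small unadjusted p, and 19.8% and 20.7% of all PT genes did not overlap in the comparisons. Of the other PT genes, Mief2 (a Drp1 receptor) had a change of 0.42 and Tax1bp1 (an autophagy adaptor) one of -0.36 against Control, and Kdm3a (a histone demethylase induced by hypoxia) 0.33 and Mtfp1 (a promoter of fission) -0.29 for EGT, none of them past the threshold. Without TMM these changes were 0.32 for Mief2, -0.44 for Tax1bp1, 0.55 for Kdm3a and -0.08 for Mtfp1.

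In the distal segments, Slc2a1, which encodes the glucose transporter GLUT1, had 15.3, 16.2 and 16.2 CPM in DCT cells of Control, 25.3, 33.1 and 31.2 in AKI-CKD and 24.1, 20.6 and 17.1 with EGT. Its AKI-CKD mice were above both other groups (without TMM they overlapped the EGT mice), at log2 changes of 0.91 ± 0.20 and -0.55 ± 0.19 (adjusted p 0.4476 and 0.2872, edgeR), and in LOH cells its change against Control was 0.80 ± 0.22 (adjusted p 0.3377, edgeR). Slc2a1 was also named for its small unadjusted p, and 16.2% and 18.7% of all DCT genes did not overlap in the comparisons. Within DCT cells, the summed level of 9 injured tubule markers, all detected, was 1196 to 1576 CPM for Control, 1888 to 2313 for AKI-CKD and 1149 to 2059 with EGT, and that of the 12 DCT markers, all detected, was 19597 to 42068, 40784 to 65274 and 18190 to 47671 CPM. Within LOH cells the 10 LOH markers, all detected, summed to 8533 to 10634 CPM for Control, 12891 to 16442 for AKI-CKD and 8915 to 14456 with EGT. The part of these marker differences in the values of Slc2a1 was not tested.

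The remaining named genes of the distal segments did not pass either. In LOH cells against Control they were Miga2, a fusion regulator, at 0.55, and Tax1bp1 and Sqstm1, both autophagy adaptors, at -0.57 and -0.29. For EGT in LOH cells they were Tbk1, a kinase of autophagy adaptors, at 0.66, Usp30, a deubiquitinase of the outer mitochondrial membrane, at -1.02, and Nipsnap2 at -0.43. The level of Usp30 was low, at 7.73, 7.73 and 11.15 CPM in AKI-CKD and 3.51, 2.28 and 6.29 with EGT. In DCT cells the remaining named genes were Ddit4, an inhibitor of mTORC1, at 0.47 and Usp8, another deubiquitinase, at -0.45 against Control. For EGT they were Ambra1, an autophagy activator, at 0.65 and Higd1a, a respiratory chain factor induced by hypoxia, at -0.50. Over its 13 tested genes, the Pink1 and ubiquitin list had a median of -0.19 in DCT cells against Control, with 11 of 13 genes below 0, and of 0.29 for EGT, with 10 of 13 above 0, where the medians over all genes tested were -0.02 and 0.01. In LOH cells the medians were -0.07, with 9 of 13 genes below 0, and 0.09, with 10 of 13 above 0. In PT cells they were -0.05 and -0.03, with 8 of 13 below 0 in both comparisons. Without TMM, 13 of 13 genes lay above 0 for EGT in DCT and in PT cells and 11 of 13 in LOH cells, where 63.7%, 77.1% and 56.9% of all genes did. None of its genes was called, and the comparisons share the AKI-CKD mice. DCT genes that span 100 to 500 kb had medians of -0.22 against Control and 0.32 for EGT. Those that span at least 500 kb had -0.42 and 0.60. The part of gene length in the values of this list was not tested.

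The relation of the members' PT levels to the mitochondrially encoded share of PT UMIs across the 9 mice depended on the scaling. With TMM, Pearson's r was -0.86 for Bnip3l (adjusted p 0.0314, permutation test), -0.83 for Fundc1 (0.0314), -0.78 for Mfn2 (0.0339), -0.78 for Pink1 (0.0339), -0.75 for Opa1 (0.0357) and -0.73 for Fis1 (0.0376), each an exact permutation p adjusted over 9 genes, while Mfn1 (-0.60), Bnip3 (-0.51) and Dnm1l (0.23) did not pass. Without TMM none passed, with r of -0.645 for Bnip3l, -0.564 for Fundc1 and -0.467 for Fis1 and with the other sign for Mfn2 (0.019), Pink1 (0.0865) and Opa1 (0.317), the smallest adjusted exact permutation p being 0.256. By Spearman's rho with TMM, from -0.80 for Bnip3l to 0.18 for Dnm1l, none passed either (smallest adjusted exact permutation p 0.0779). Without the 2 mice farthest from the median share (Control 1 and AKI-CKD + EGT 3), r with TMM was -0.59 for Bnip3l, -0.36 for Fundc1, -0.67 for Mfn2, -0.65 for Pink1, -0.87 for Opa1 and -0.32 for Fis1. Computed on deviations from the group means, r ranged with TMM from -0.914 (Fundc1) and -0.905 (Bnip3l) over -0.791 (Opa1), -0.781 (Mfn1), -0.741 (Mfn2), -0.713 (Pink1), -0.592 (Fis1) and -0.479 (Bnip3) to 0.13 (Dnm1l). Without TMM it was -0.921 for Fundc1, -0.849 for Bnip3l, -0.503 for Mfn1, -0.334 for Bnip3, -0.286 for Fis1, -0.164 for Pink1, -0.0457 for Mfn2, 0.0799 for Opa1 and 0.544 for Dnm1l. With TMM an r at or below -0.7 was found for 15.3% of the 17893 PT genes, and the share counts in the same UMI total as the members. The median r with TMM was -0.68 over nuclear OXPHOS genes and -0.72 over ribosomal protein genes, against -0.02 over all PT genes.

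For each member, the 2 genes with the most similar mean log2(CPM + 1) over the 11 cell types were found among 9311 genes with at least 20 CPM in some type, as a description. Mfn1 was most like Hdhd2 (Pearson's r 0.96 over 11 types) and Ndufa12 (0.95), Mfn2 most like Ndrg2 (0.98) and S100a1 (0.96), and Opa1 most like Ltn1 (0.96) and Slc25a46 (0.95). Dnm1l was most like Suds3 and Ndrg3 (both 0.96), Fis1 most like Pla2g12a and Tmem242 (both 0.91), and Pink1 most like Tmem223 and Dtx3 (both 0.91). Bnip3 was most like Mrpl20 and Romo1 (both 0.95), Bnip3l most like Tbxa2r and Nrbp1 (both 0.94), and Fundc1 most like Cyb5r4 (0.85) and Gpatch11 (0.84). Among the members themselves, Mfn1 and Mfn2 had the highest r at 0.86 and Bnip3 and Bnip3l the lowest at -0.59. The points share their libraries and the PT RNA given above, and small types rest on few UMIs.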

How the data were processed

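Droplet single-cell libraries of 9 mouse kidneys were analysed, 3 per group. The deposited matrices hold raw UMI counts per gene and barcode, made by the authors with PISA (v1.0) against GRCm39, per the submitters' processing notes, and nothing was normalized before deposit. Cells with at least 1000 UMIs, 500 genes and at most 15% mitochondrial UMIs were clustered after the study's steps (2000 variable genes, 30 principal components, Harmony, resolution 1.1) in Python 3.11.15 with igraph 0.11.9. A cluster was named where at least 3 markers of a type were raised at least 2-fold. The rule that keeps mixed and haemoglobin-led clusters without a name was chosen once the clusters had been viewed. No doublet caller was run, and the 5% deepest cells were left out as an alternative.

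For each mouse, the UMIs of a cell type were added up, and the sums were compared by the edgeR 4.0.16 quasi-likelihood F test (R 4.3.3, TMM, filterByExpr, all 9 mice in 1 fit, group as the only term), Benjamini-Hochberg adjusted over all genes at 0.05. The study tested pooled cells, which treats cells as replicates. DESeq2 1.42.0 and further settings were alternatives, and PT cells with an added unnamed cluster and library totals without TMM scaling were alternatives chosen after seeing the data. The sample titles number the 3 libraries of a group, and the study's methods call them biological replicates. The fits were tested on simulated data.

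The 9 genes and all lists were chosen with earlier results of these data known. Named genes were the 9 members, the list genes with the 2 smallest unadjusted p in each direction in PT, LOH and DCT cells, and the 2 genes most alike each member. The values of 1 gene that this rule names are not reported here. Positions and upstream sequences are from RefSeq on GRCm38.p6, gene lengths from a GRCm38 GENCODE annotation, and neither was set against positions of the files, which give none. UMI totals limit precision by counting error only.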

Additional observations from a re-analysis of the deposited data

How the results depend on the processing

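No member passed the adjusted threshold of 0.05 within a cell type under any setting tried, nor in the tests of a difference from PT cells, which were not run with 6 mice or the replicate block. The settings were leaving out a comparison's other group so that 6 mice were fitted, DESeq2, testing genes without a count minimum, taking Malat1, ribosomal protein and mitochondrially encoded counts out of library sizes, a replicate block, at most 10% mitochondrial UMIs, clustering without Harmony, leaving out the 5% deepest cells, scaling without TMM, adding to PT an unnamed cluster of 17309 cells that raised 2 PT markers, and leaving out each mouse in turn. With that cluster added, 8 and 0 PT genes were called in the comparisons, the PT medians over the members were 0.025 and -0.13, and no member changed sign. Taking Malat1, ribosomal protein and mitochondrially encoded counts out of library sizes left every count of calls within a cell type as it was, since TMM factors were computed anew, and so says nothing about those RNAs. Mouse numbers were shared between groups in the labels but did not pair the mice (correlations of same-numbered mice from -0.512 to 0.426), and the fit with the replicate block had 0 PT genes called against 7 for AKI-CKD against Control without it and changed the sign of 1 member value, Opa1 in endothelial cells for EGT, to 0.0048. Counts of all genes called in PT cells for AKI-CKD against Control were 7 with edgeR, 210 with DESeq2, 84 with no filter and 0 with only the 6 mice compared, and for EGT against AKI-CKD 0, 413, 196 and 0. For EGT they were 1, 39 and 269 in LOH cells (14 with only the 6 mice, 26 without Harmony, 8 without TMM), 0, 48 and 519 in DCT cells, 1, 63 and 210 in endothelial cells and 0, 7 and 153 in macrophages with edgeR, DESeq2 and no filter, and for AKI-CKD against Control 0, 12 and 124, 0, 6 and 220, 0, 14 and 127, and 0, 1 and 60. Without AKI-CKD + EGT 1 the EGT counts were 90 in PT, 23 in LOH and 271 in DCT cells, and without Control 2 the PT count against Control was 0. With 3 mice a group and down to 7 UMIs per mouse for a member in macrophages, a count of 0 members called does not show that their values were stable. The cause of each value below was not tested.

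The median over the 9 members was 0.15 in LOH cells and -0.047 in macrophages for AKI-CKD against Control without Harmony, and -0.12 in macrophages for EGT against AKI-CKD both without Harmony and without the 5% deepest cells. With 1 mouse left out it ranged from -0.034 to 0.089 in LOH, -0.0050 to 0.095 in DCT and -0.048 to 0.19 in endothelial cells and -0.23 to 0.027 in macrophages for AKI-CKD against Control and, for EGT, from -0.27 to -0.067 in endothelial cells, -0.20 to 0.039 in LOH cells, -0.21 to -0.060 in DCT cells and -0.24 to -0.13 in macrophages. Member changes that took the other sign, none of them called, were as follows. For AKI-CKD against Control, Bnip3 in PT cells was -0.0035 with DESeq2, -0.018 with only the 6 mice and -0.0019 without the 5% deepest cells, which also gave Bnip3 -0.042 and Fundc1 -0.039 in macrophages. Without Harmony, Bnip3l was 0.0050 and Fundc1 0.022 in LOH, Fundc1 -0.036 in DCT and Dnm1l -0.055 in endothelial cells, and at most 10% mitochondrial UMIs gave Bnip3l 0.00571 and Opa1 -0.033 in DCT cells. For EGT, Mfn1 in DCT cells was 0.0026 with only the 6 mice, 0.060 without the deepest cells, 0.074 at 10% and 0.0091 with no filter. Without the deepest cells Mfn1 was also -0.18 in endothelial cells and -0.0509 in macrophages, and Mfn2 0.19 in macrophages. Without Harmony, Opa1 was 0.017 in LOH and Fundc1 0.046 in DCT cells, with Mfn1 -0.10 and Mfn2 0.083 in macrophages, and Mfn1 was -0.0019 there at 10%.

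Scaling by library totals without TMM, chosen after seeing the data, gave EGT medians over the members of 0.076 in PT and 0.00086 in DCT cells and changed more signs than the settings above. Against Control, Bnip3 was -0.086, Bnip3l -0.046 and Pink1 -0.025 in PT, Fundc1 0.011 in LOH, and Fundc1 -0.00047, Opa1 -0.057 and Pink1 -0.048 in DCT cells. For EGT, Bnip3 was 0.066, Bnip3l 0.075, Fundc1 0.14, Mfn1 0.11, Mfn2 0.049, Opa1 0.084 and Pink1 0.076 in PT, Bnip3l 0.00086, Fundc1 0.030, Mfn1 0.11 and Opa1 0.031 in DCT, and Bnip3 0.0094 and Opa1 0.039 in endothelial cells. The correlations with the mitochondrially encoded share became 0.019 for Mfn2, 0.317 for Opa1, 0.0865 for Pink1, -0.467 for Fis1, -0.645 for Bnip3l and -0.564 for Fundc1.

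With 1 mouse left out, values for AKI-CKD against Control that crossed 0 ranged in PT cells from -0.044 to 0.049 for Bnip3, -0.046 to 0.047 for Opa1, -0.030 to 0.13 for Pink1, -0.16 to 0.25 for Bnip3l and -0.076 to 0.26 for Fundc1. In LOH cells they ranged from -0.16 to 0.089 for Fundc1, -0.013 to 0.10 for Pink1, -0.049 to 0.18 for Bnip3 and -0.020 to 0.32 for Mfn2. In DCT cells they ranged from -0.097 to 0.13 for Bnip3l, -0.0050 to 0.063 for Opa1, -0.023 to 0.22 for Bnip3, -0.039 to 0.095 for Pink1 and -0.075 to 0.25 for Fundc1. In endothelial cells they ranged from -0.20 to 0.18 for Dnm1l, -0.12 to 0.19 for Mfn2, -0.38 to 0.12 for Bnip3, -0.057 to 0.19 for Fundc1, -0.27 to 0.040 for Mfn1, -0.39 to 0.23 for Opa1 and -0.039 to 0.25 for Pink1, and in macrophages from -0.00085 to 0.48 for Bnip3 and -0.31 to 0.027 for Dnm1l. For EGT the PT ranges were -0.012 to 0.090 for Dnm1l, -0.20 to 0.020 for Mfn1, -0.35 to 0.16 for Bnip3, -0.38 to 0.032 for Bnip3l and -0.23 to 0.097 for Fundc1. The LOH ranges were -0.29 to 0.24 for Bnip3, -0.079 to 0.27 for Dnm1l, -0.039 to 0.15 for Mfn1 and -0.25 to 0.11 for Mfn2, and the DCT ranges -0.031 to 0.058 for Mfn1, -0.47 to 0.066 for Bnip3 and -0.24 to 0.13 for Fundc1. In endothelial cells they were -0.33 to 0.28 for Opa1, -0.027 to 0.28 for Mfn1, -0.29 to 0.21 for Bnip3 and -0.18 to 0.38 for Dnm1l, and in macrophages -0.14 to 0.11 for Mfn1 and -0.23 to 0.0013 for Mfn2. The changes of Fis1 kept their sign in all 5 cell types and both comparisons under every setting named above.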
